A study of Mus musculus with 653 samples.

Results

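The 10 genes described here are the bone morphogenetic protein (BMP) ligand genes *Bmp2*, *Bmp4*, *Bmp5* and *Bmp7*, the inhibitor of DNA binding genes *Id1*, *Id2*, *Id3* and *Id4*, and the inhibitory SMAD genes *Smad6* and *Smad7*. They were taken as a named list from a table of raw read counts with 54195 genes, and all 10 were found in it. Their reads were followed over 653 single cells of the embryonic mouse liver, sequenced with the Smart-seq2 protocol, in which full-length cDNA of 1 cell is amplified and read. Embryos came from males of the Lgr5-EGFP-IRES-creERT2 line, kept on C57BL/6, and females of the MF1 stock. The knock-in places GFP under the control of *Lgr5*, the gene of a receptor that enhances WNT signals, so that GFP marks cells with recent *Lgr5* expression. At E10.5 (E for embryonic day), 414 cells were kept, of which 51% were sorted as Lgr5-GFP positive and 49% as bulk liver cells. At E13.5 the table holds 239 cells, 80 of the Lgr5-GFP sort and 66.5% from the bulk. The sort kept cells that bound the Liv2 antibody, a label of liver progenitors, and left out cells with CD31 or CD45 on their surface. The labels name no animal or litter, so each of the 4 groups of stage and sort counts as 1 sample, no test between groups was possible, and intervals cover counting error only.

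BMPs are secreted ligands that bind pairs of receptor kinases on neighbouring cells. The receptors phosphorylate SMAD1, SMAD5 and SMAD9, which enter the nucleus with SMAD4 and switch on target genes, with the *Id* genes among the best known of them. ID proteins have a helix-loop-helix domain but no DNA-binding region, and they tie up E proteins and other basic helix-loop-helix factors. SMAD6 and SMAD7 are themselves induced by the pathway and damp it at the receptor. In the early liver, BMPs from the mesenchyme around the hepatic bud act on the foregut endoderm that forms the hepatoblasts, the common progenitors of hepatocytes and cholangiocytes.

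On the GRCm38 assembly, *Id1* (ENSMUSG00000042745) spans chr2:152736251-152737410, *Id2* (ENSMUSG00000020644) chr12:25093799-25097140, *Id3* (ENSMUSG00000007872) chr4:136143497-136145755 and *Id4* (ENSMUSG00000021379) chr13:48261228-48266026. *Bmp2* (ENSMUSG00000027358) spans chr2:133552159-133562885, *Bmp4* (ENSMUSG00000021835) chr14:46383520-46390669, *Bmp5* (ENSMUSG00000032179) chr9:75775364-75900310 and *Bmp7* (ENSMUSG00000008999) chr2:172868012-172940321. *Smad6* (ENSMUSG00000036867) lies at chr9:63953076-64022059. Exons of 3 members, *Id4*, *Bmp4* and *Bmp5*, overlap exons of a gene on the opposite strand in the GENCODE annotation, and no source used here says that strand was kept, so reads of such partners may be counted either way.

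RefSeq start regions on GRCm38.p6 were matched for 6 members, *Id2*, *Id3*, *Id4*, *Bmp4*, *Bmp5* and *Smad6*. They were searched on both strands, from 250 bases before to 50 bases after the start, for letters known from BMP targets. The first motif was the BMP-responsive GC box GGCGCC, the second the SMAD palindrome GTCTAGAC, both the same on either strand and without overlap between them. The GC box was found in *Id2* and *Id4*, and it is present in 11.9% of 32851 start regions of the same length. The SMAD palindrome was found in *Smad6*, where it crosses the start itself, and 0.213% of all start regions hold it. A TATA box, TATAAA, was found in none of the 6, against 13.6% of all start regions. The RefSeq starts of *Id2* and *Id3* lie inside the gene spans given above, so their windows are not upstream of the whole annotated genes, and the stretch of *Id2* is not shown. The stretches that carry the matches of *Id4* and *Smad6* are shown 5′ to 3′ with the match in capitals, beside the region of *Bmp4*, the most abundant ligand, in which none of the 3 was found. They are chr13:48260866-48261115 (plus strand) for *Id4*, chr9:64022056-64022309 (minus strand, with the last 4 bases past the start) for *Smad6* and chr14:46390670-46390919 (minus strand) for *Bmp4*.
Id4: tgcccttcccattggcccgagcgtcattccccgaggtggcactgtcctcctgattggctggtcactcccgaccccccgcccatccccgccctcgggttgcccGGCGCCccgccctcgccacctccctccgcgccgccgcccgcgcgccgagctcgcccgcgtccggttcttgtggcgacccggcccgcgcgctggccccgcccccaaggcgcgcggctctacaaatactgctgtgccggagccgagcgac
Smad6: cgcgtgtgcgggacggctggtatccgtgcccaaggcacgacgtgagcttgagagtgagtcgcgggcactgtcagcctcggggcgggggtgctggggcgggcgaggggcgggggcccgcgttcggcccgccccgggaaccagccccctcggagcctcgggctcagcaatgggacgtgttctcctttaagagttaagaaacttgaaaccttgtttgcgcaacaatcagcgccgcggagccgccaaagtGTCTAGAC
Bmp4: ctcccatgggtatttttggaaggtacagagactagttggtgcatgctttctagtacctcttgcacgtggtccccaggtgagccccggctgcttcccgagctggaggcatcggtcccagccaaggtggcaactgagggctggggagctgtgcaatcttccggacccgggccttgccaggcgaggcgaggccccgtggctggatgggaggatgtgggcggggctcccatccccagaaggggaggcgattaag
A match of letters is a description of the sequence and not evidence of binding. The GC content of the whole window was 63.3% in *Id2*, 73.3% in *Id4*, 66.3% in *Smad6* and 64% in *Bmp4*, against a median of 52.7% over all start regions, and 43.3% in *Bmp5*.

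Cells were assigned to a class where exactly 1 of 3 marker genes had more than 10 reads. *Afp* (alpha-fetoprotein, a hepatoblast product) marked 61 cells, *Klf1* (an erythroid transcription factor) 160 and *Pdgfra* (a growth factor receptor of mesenchyme) 150. Another 272 cells had none of the markers over the limit and 10 had more than 1. Over the limit, 1, 8 and 26 cells had only 11 to 50 reads of *Afp*, *Klf1* and *Pdgfra*. Under it, 419, 279 and 359 cells had no read of them, and the other cells under it had 1 to 10 reads. At E10.5 the classes met their markers. All 8 hepatoblast markers checked, among them *Alb* and *Hnf4a*, reached 10 RPM (reads per 1000000 reads on genes) in *Afp*-marked cells, against 1 in *Pdgfra*-marked and 0 in *Klf1*-marked cells. All 8 erythroid markers did so in *Klf1*-marked cells, against 0 in the other 2 classes, and all 8 mesenchymal markers in *Pdgfra*-marked cells, against 4 in *Afp*-marked and 3 in *Klf1*-marked cells.

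The class make-up of the 4 groups differed, and this bears on each comparison of whole groups. The labels call all cells liver hepatoblast cells, yet *Afp*-marked cells numbered 53 (25.1%) in the E10.5 Lgr5-GFP sort, 6 (2.96%) in the E10.5 bulk, 2 of 80 in the E13.5 Lgr5-GFP sort and 0 in the E13.5 bulk. *Klf1*-marked cells numbered 0 in the E10.5 Lgr5-GFP sort, 32 (15.8%) in the E10.5 bulk and 3 in the E13.5 Lgr5-GFP sort, and they made up 78.6% of the E13.5 bulk. *Pdgfra*-marked cells numbered 66, 76, 7 and 1 in the same order, and unmarked cells 89, 84, 67 and 32. The 2 *Afp*-marked cells of E13.5 go against their class. Together they reached 10 RPM for 4 of 8 hepatoblast, 7 of 8 mesenchymal and 5 of 6 leukocyte markers. No comparison of classes uses them, but they are part of the E13.5 Lgr5-GFP group. *Lgr5* itself was at 65.3 RPM in the E10.5 Lgr5-GFP sort and 2.69 RPM in the bulk, and at 23.2 and 0.412 RPM at E13.5. Reads per cell ranged from 463347 to 2279700 with a median of 1192740, and the cells were sequenced as 5 library pools, which serve as technical batches.

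**Figure D1:**
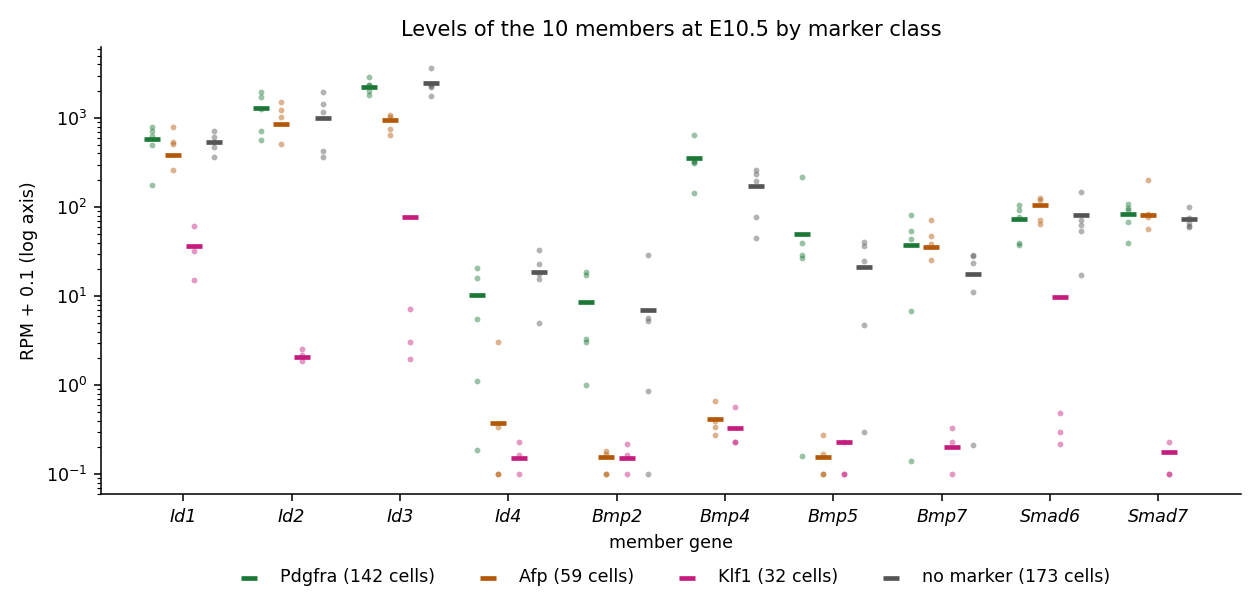
Levels of the 10 genes in E10.5 cells by marker class, in RPM on a log axis (0.1 added). Bars are reads summed over all cells of a class and points are library pools with at least 5 cells. *Bmp4* and *Bmp5* are high in *Pdgfra*-marked and unmarked cells alone, *Bmp7* in those and in *Afp*-marked cells, and *Klf1*-marked cells are lowest or near lowest for every gene.

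Within the E10.5 liver, *Bmp4* and *Bmp5* were found in the mesenchymal class and hardly in the hepatoblast and erythroid classes, while *Bmp7* was shared by the first 2 of these. *Bmp4*, a ligand of the septum transversum mesenchyme, was at 356 RPM in *Pdgfra*-marked cells (95% interval 353 to 358), 0.314 RPM in *Afp*-marked cells and 0.23 RPM in *Klf1*-marked cells. More than 10 reads of it were found in 75 *Pdgfra*-marked cells (52.8%, 44.3 to 61.2), in 0 of 59 *Afp*-marked cells, which allows a share of up to 5.08% by the limit of 3 cells used here (6.06% by the exact interval), and in 0 of 32 *Klf1*-marked cells, which allows up to 9.38% (10.9% by the exact interval). The level in *Pdgfra*-marked cells was 1133-fold that of *Afp*-marked cells (755 to 1788). Across pools it lay between 142.7 and 647 RPM in the former and between 0.176 and 0.565 RPM in the latter, so the pools of the 2 classes did not overlap. Within the class it was uneven. Any read was found in 71.8% of the cells, the median cell had 63 RPM and the highest 3806 RPM.

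*Bmp5*, a close relative of *Bmp7*, showed the same class pattern at a lower level, with 50.4 RPM in *Pdgfra*-marked, 0.0546 RPM in *Afp*-marked and 0.128 RPM in *Klf1*-marked cells. It passed 10 reads in 26 *Pdgfra*-marked cells (18.3%, 12.3 to 25.7) and in none of the 2 other classes. A single cell of the bulk sort held 57.7% of all *Bmp5* reads of the *Pdgfra* class. The log2 ratio over *Afp*-marked cells was 5.61 with that cell and 4.43 without the cell with most reads on each side. *Bmp5* was at 0.059 RPM in the *Pdgfra*-marked cells of pool 1 and between 27 and 215 RPM in the other pools.

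*Bmp7* was the only ligand of the 4 over 10 RPM in *Afp*-marked cells. Its level was 37.5 RPM in *Pdgfra*-marked cells (36.6 to 38.5), 35.7 RPM in *Afp*-marked cells (34.3 to 37.1) and 0.102 RPM in *Klf1*-marked cells. It passed 10 reads in 26 (18.3%), 13 of 59 (22%) and 0 of 32 cells. The log2 ratio of *Pdgfra*-marked to *Afp*-marked cells was 0.07, and the pools ranged from −4.68 to 0.17. The lowest value came from pool 2, in which *Pdgfra*-marked cells had 0.0421 RPM and *Afp*-marked cells 25.7 RPM. *Bmp2*, which signals through the same receptors as *Bmp4*, stayed under 10 RPM in all 3 classes. It reached 8.53 RPM in *Pdgfra*-marked cells, where 14 cells (9.86%, 5.5 to 16) had more than 10 reads, and 0.0546 and 0.051 RPM in the other 2 classes, where no cell did.

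*Id1*, *Id2* and *Id3* were found in both the mesenchymal and the hepatoblast class, and *Id4* hardly in the latter. *Id3* was the most abundant member, with 2213 RPM in *Pdgfra*-marked cells (2206 to 2220), 951 RPM in *Afp*-marked cells (944 to 958) and 76.7 RPM in *Klf1*-marked cells. It passed 10 reads in 92.3%, 89.8% and 6.25% of the cells of these classes. The first of these levels was 2.33-fold the second (2.31 to 2.35), and the log2 ratio was above 0 in all 4 pools with enough cells of both classes (0.84 to 1.84). Of the *Id3* reads in *Klf1*-marked cells, 94.1% came from 1 cell with 3649 RPM, and the median cell had 2.94 RPM. *Id2* followed with 1291 RPM in *Pdgfra*-marked, 859 RPM in *Afp*-marked and 1.99 RPM in *Klf1*-marked cells. It passed 10 reads in 88% and 88.1% of the cells of the first 2 classes and in 0 of 32 *Klf1*-marked cells. The highest *Klf1*-marked cell had 6.45 RPM, while the median cell of the other 2 classes had 1085 and 722 RPM, and the class level was 649-fold (520 to 821) and 431-fold (346 to 546) above that of the *Klf1* class.

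*Id1* was at 583 RPM in *Pdgfra*-marked, 381 RPM in *Afp*-marked and 36.3 RPM in *Klf1*-marked cells, and it passed 10 reads in more *Klf1*-marked cells than any other member did. The cells over 10 reads were 76.8% of the first class, 39 of 59 (66.1%) and 11 of 32 cells (34.4%, 18.6 to 53.2). The ratio of the first 2 classes had no steady sign over the pools (log2 −0.67 to 0.57). Summed over all cells the log2 ratio was 0.61, above each of these pools. The level of *Id1* was lowest in pool 2 in both classes. It was 174.7 RPM there in *Pdgfra*-marked cells against 504 to 796 RPM in the others, and 263 RPM in *Afp*-marked cells against 510 to 801 RPM. Pool 2 held 31 of the 53 Lgr5-GFP sorted *Afp*-marked cells. *Id4* was scarce, with 10.3 RPM in *Pdgfra*-marked cells, 0.273 RPM in *Afp*-marked cells and 0.051 RPM in *Klf1*-marked cells. It passed 10 reads in 24 (16.9%), 1 of 59 (1.69%) and 0 of 32 cells. Its level lay just over 10 RPM, and without the cell with most reads on each side its calls described below were lost.

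Neither inhibitory SMAD gene was called between mesenchyme and hepatoblasts. *Smad7* (ENSMUSG00000025880) spans chr18:75367529-75395935 on GRCm38. *Smad6* was at 73.6 RPM in *Pdgfra*-marked cells (63 cells, 44.4%) and 104.7 RPM in *Afp*-marked cells (17 of 59, 28.8%). *Smad7* was at 82.9 RPM (75 cells, 52.8%) and 81.4 RPM (26 of 59, 44.1%). The log2 ratios of −0.50 and 0.03 ranged over pools from −1.65 to 0.68 and from −1.56 to 0.73. In *Klf1*-marked cells, *Smad7* had 3 reads in all 32 cells (0.0766 RPM) and *Smad6* 9.72 RPM, of which 97.4% came from 1 cell.

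**Figure D2:**
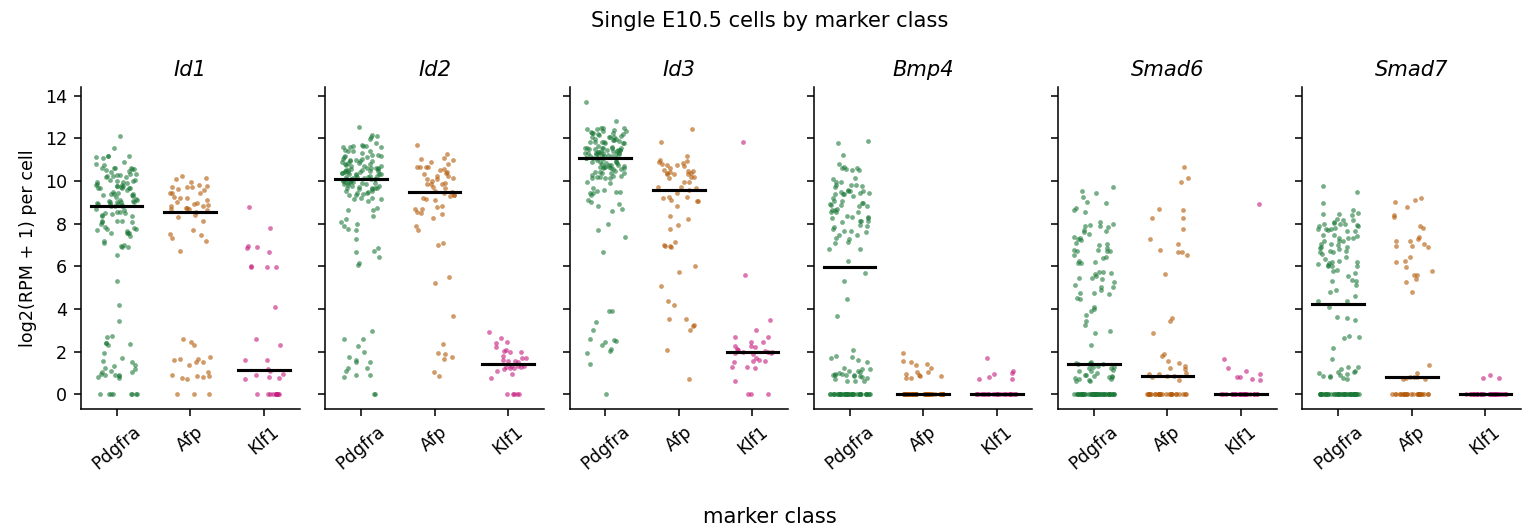
Single E10.5 cells of the 3 marker classes, as log2(RPM + 1) of 6 members. Each point is 1 cell and the bar is the median. *Id2* and *Id3* fill most *Pdgfra*-marked and *Afp*-marked cells, *Bmp4* spreads from 0 to 3806 RPM in *Pdgfra*-marked cells and is at most 2.77 RPM in *Afp*-marked cells, and 1 *Klf1*-marked cell stands far above the others for *Id3* and 1 for *Smad6*.

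A gene was called between 2 sides when the higher side had at least 10 RPM, the log2 ratio of RPM + 1 was at least 1 in size, and its sign was the same in every pool with at least 5 cells of both sides. At least 2 such pools and 10 cells a side were required. By this rule 4 of the 10 members, *Id3*, *Id4*, *Bmp4* and *Bmp5*, were higher in *Pdgfra*-marked than in *Afp*-marked cells and none was lower, where 14.7% of the 10187 genes with 10 RPM on either side were higher and 8.61% lower. The median log2 ratio was 0.61 over the 9 members tested and 0.20 over all genes tested. Over *Klf1*-marked cells, 9 members were higher in *Pdgfra*-marked cells (28.8% of all genes tested were higher and 13.2% lower), the exception being *Bmp2*. In *Afp*-marked cells, 6 members, *Id1*, *Id2*, *Id3*, *Bmp7*, *Smad6* and *Smad7*, were higher than in *Klf1*-marked cells (16% higher and 12.5% lower). The other 4 were under 10 RPM on both sides. Class and sort went together here, since 53 *Afp*-marked cells came from the Lgr5-GFP sort and 6 from the bulk, against 0 and 32 *Klf1*-marked cells. Of the *Pdgfra*-marked cells, 66 came from the Lgr5-GFP sort and 76 from the bulk. The mix of sorts thus also differed where this class was compared with either of the others. The part of the sort in these calls was not tested. The median log2 ratios of the members tested were 5.13 and 4.33 over the *Klf1* class, against 0.20 and −0.02 over all genes. Among all genes called between *Pdgfra*-marked and *Afp*-marked cells, 63.1% were higher in the former, and this split fell to 52.6% with TMM and 51.1% with DESeq2 size factors. With DESeq2 factors the log2 ratio of *Id3* was 0.99 and its call was lost.

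Per kilobase of exon, which allows genes to be compared, the order in E10.5 *Pdgfra*-marked cells was *Id3* (1236 RPM per kb), *Id2* (530), *Id1* (502), *Bmp4* (158.2), *Smad6* (23), *Smad7* (18.3), *Bmp5* (12.5), *Bmp7* (9.34), *Id4* (2.67) and *Bmp2* (2.4). *Id1*, *Id2* and *Id3* stood above all 4 ligands, *Id4* stood below 3 of them, and *Bmp4* alone among the ligands came within 10 times of an *Id* gene other than *Id4*. In *Afp*-marked cells the levels per kb were 531 for *Id3*, 352 for *Id2*, 329 for *Id1*, 32.7 for *Smad6*, 18 for *Smad7* and 8.87 for *Bmp7*. The pools of *Id1* and *Id2* overlapped in both classes.

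Each of the 3 abundant *Id* genes passed 10 reads in most *Pdgfra*-marked and *Afp*-marked cells, as given above. Joint presence in a cell follows in part from these single shares, and an excess over them was not tested. More than 10 reads of all 3 were present in 73.9% of *Pdgfra*-marked cells (65.9 to 80.9) and 35 of 59 *Afp*-marked cells (59.3%, 45.7 to 71.9). In *Klf1*-marked cells 0 of 32 held all 3, 13 held 1 and 19 held none. At least 1 of the 4 ligands passed 10 reads in 94 *Pdgfra*-marked cells (66.2%), 13 of 59 *Afp*-marked cells (22%, with *Bmp7* in each) and 0 of 32 *Klf1*-marked cells. No cell of these classes held all 4 ligands, and 8 *Pdgfra*-marked cells held 3. At least 1 of *Smad6* and *Smad7* passed 10 reads in 99 (69.7%), 33 (55.9%) and 1 (3.12%) cells of the 3 classes. *Id1* passed the limit in 67 of the 75 *Pdgfra*-marked cells with *Bmp4*, which is 89.3% of those cells and 61.5% of the cells with *Id1*.

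Across the 66 Lgr5-GFP and 76 bulk E10.5 *Pdgfra*-marked cells, *Id1* varied with *Id2* (Pearson r = 0.56, or 0.43 within pools) and with *Id3* (0.53, or 0.51 within pools), and *Id2* with *Id3* (0.42, or 0.35). These are descriptions over cells that share pools and differ in depth. *Bmp4* in a cell varied little with the *Id* genes of the same cell, with r = 0.26 for *Id1* (0.08 within pools), 0.16 for *Id2* (−0.07) and 0.15 for *Id3* (0.07). *Smad6* and *Smad7* gave r = 0.13 (0.04 within pools). *Smad7* gave r = 0.39 with *Id1* (0.25 within pools) and 0.34 with *Id3* (0.28).

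For each member with more than 10 reads in at least 20% of the cells, the 5 genes with the most similar pattern were listed out of 6773 others. Another member was nearest to *Id1*, namely *Id2*, followed by *Anp32b*, *Ilf2*, *Hnrnpab* and *Snrnp70* (r from 0.56 to 0.54). *Id1* was also nearest to *Id3* (0.53), followed by *Ptma*, *Mdh2*, *Sfr1* and *Ncl*, and it was the fourth gene of *Id2*, after *Hnrnpab* (0.59), *Gm26917* and *Snrnp70* and before *Psmb7*. The genes nearest to *Bmp4* were *Il11ra1* (0.54, or 0.44 within pools), *Ddr2*, *Unc5b*, *Pja1* and *Fto*. Those of *Smad6* included *Tnc* (0.47), *Wac*, *Sar1a* and *Rilpl1*, and those of *Smad7* were *March5* (0.45), *Sf1*, *Ppp1r2*, *Wdr82* and *Psma4*. In the 59 *Afp*-marked cells, no member was among the 5 nearest genes of another. There the nearest genes were *Clspn* for *Id1* (0.68), *Cops5* for *Id2* (0.60), *Ndufa3* for *Id3* (0.48), *Rnf141* for *Bmp7* (0.63), *Rnf5* for *Smad6* (0.53) and *Letm1* for *Smad7* (0.68).

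Other genes of the pathway were counted from lists of ligands, receptors, SMADs, antagonists, feedback genes and helix-loop-helix partners, and the levels given are E10.5 RPM in *Pdgfra*-marked, *Afp*-marked and *Klf1*-marked cells in this order. Of all 10712 genes tested between at least 1 pair of these classes, 53.9% were called in at least 1 of the 3 comparisons, and each list is to be read against that share. Of 14 other BMP and GDF ligands, 6 were tested and 5 called between at least 1 pair. *Gdf3*, a nodal-like ligand, was at 0.0284, 0.0136 and 109.4 RPM, *Gdf15*, a stress-induced ligand, at 0.00568, 89.8 and 0 RPM, *Gdf10* at 52.9, 0.709 and 0.128 RPM and *Gdf11* at 43.8, 35.9 and 1.28 RPM. *Gdf10*, *Gdf15* and *Gdf3* were each over 10 RPM in a different one of the 3 classes.

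Of 13 receptors and co-receptors, 11 were tested and 10 called between at least 1 pair. The type I receptor *Bmpr1b* was at 74, 0.232 and 0.179 RPM, the co-receptor endoglin (*Eng*) at 25.7, 0.0818 and 0.511 RPM, and the co-receptors *Rgmb* and *Rgma* at 18.8 and 16 RPM in *Pdgfra*-marked cells, 2.28 and 0.0273 RPM in *Afp*-marked cells and 0.0766 and 0.179 RPM in *Klf1*-marked cells. Between *Pdgfra*-marked and *Afp*-marked cells, 4 of the 11 receptors tested were higher and 1 lower, and over *Klf1*-marked cells 8 were higher and 0 lower. Endothelial markers, of which *Eng* could be another, summed to 76 RPM in *Pdgfra*-marked cells, with 3 of 8 over 10 RPM, and to 13.6 and 23.6 RPM in the other classes, and their part in the *Eng* value was not tested. All 3 SMADs tested of the 4 that carry the signal were higher in *Pdgfra*-marked than in *Klf1*-marked cells, with *Smad4* at 123.2, 47.7 and 11.2 RPM, *Smad1* at 99, 50.4 and 13.2 RPM and *Smad5* at 67.1, 76.6 and 14.8 RPM.

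Of 18 secreted antagonists and modulators, 9 were tested and 8 called. Noggin (*Nog*), which binds BMPs and keeps them from their receptors, was at 36.1, 0.191 and 0.051 RPM, while follistatin (*Fst*), which binds activins and some BMPs, was at 6.34, 83.9 and 0 RPM. The protease gene *Bmp1*, whose product cleaves the antagonist chordin and is no ligand of this family, was at 80.1, 20.4 and 0.0766 RPM, and *Fstl1* at 415, 17.7 and 10.6 RPM. Of 14 other feedback genes and targets, 12 were tested and 9 called, all of them lower in *Klf1*-marked than in *Pdgfra*-marked cells. The pseudoreceptor gene *Bambi* was at 642, 184.9 and 36.3 RPM. The homeobox targets *Msx1* and *Msx2* were at 351 and 190.5 RPM in *Pdgfra*-marked cells, 1.57 and 0.3 RPM in *Afp*-marked cells and 0.332 and 0.204 RPM in *Klf1*-marked cells, and *Hey1* was at 22.7, 0.0546 and 0.051 RPM. These 3 targets, like *Bmp4*, were under 10 RPM in *Afp*-marked cells, where *Id1*, *Id2* and *Id3* were at 381 RPM or more. Of 12 E proteins and other helix-loop-helix genes, 9 were tested and 8 called. *Hand1*, *Twist1* and *Twist2* were at 143.4, 60.5 and 64.8 RPM in *Pdgfra*-marked cells and at or under 0.164 RPM in *Afp*-marked cells, and *Tal1*, an erythroid factor, was at 142.3 RPM in *Klf1*-marked cells and 1.09 and 0.0546 RPM in the other 2 classes.

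The sort was compared within the mesenchymal class, so that class make-up did not differ between its sides. Of the *Pdgfra*-marked E10.5 cells, 66 came from the Lgr5-GFP sort and 76 from the bulk, and 0 of the 10 members were called between them, where 1.77% of the 9955 genes tested were higher and 1.83% lower. *Bmp4* was at 496 RPM in the Lgr5-GFP cells (491 to 500) and 224 RPM in the bulk cells (221 to 227), with more than 10 reads in 49 of 66 (74.2%, 62 to 84.2) and 26 of 76 cells (34.2%, 23.7 to 46). In pools 2 to 5 the Lgr5-GFP cells had 214, 422, 426 and 1112 RPM and the bulk cells 102.4, 213, 175.5 and 235 RPM, and in pool 1 the order was the other way, with 276 and 379 RPM. Without pool 1 *Bmp4* met the rule.

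*Id4* was at 16.5 and 4.4 RPM in Lgr5-GFP and bulk cells (18 of 66 cells, 27.3%, and 6 of 76, 7.89%), and its pools ranged from −1.37 to 2.30 on the log2 scale. *Bmp2* was at 15.4 and 2.07 RPM (10 of 66 and 4 of 76 cells), with a range of −2.71 to 5.63. *Bmp7* was at 23.6 and 50.7 RPM, with a range of −1.45 to 0.16, and *Bmp5* at 32.2 and 67.4 RPM, of which 1 bulk cell held 83.7% of the bulk reads. Leaving out pool 2 led to calls of *Id4* (higher in Lgr5-GFP cells) and *Bmp7* (lower), and leaving out pool 5 to a call of *Bmp2*. Summed over all pools, *Id1* was at 553 and 611 RPM, *Id2* at 1347 and 1240 RPM and *Id3* at 2148 and 2274 RPM. Single pools differed in both directions, with log2 ratios from −0.98 to 2.42 for *Id1*, from −0.25 to 0.52 for *Id2* and from −0.66 to 0.71 for *Id3*. *Smad6* was at 73.8 and 73.4 RPM, with pools from −2.67 to 3.09, and *Smad7* at 99.5 and 67.3 RPM, with pools from −0.31 to 2.95. In the *Afp* class the bulk held 6 cells and no calls were made. There *Smad6* was at 116.3 RPM in Lgr5-GFP cells and 12.5 RPM in bulk cells, where all its reads came from 1 cell. *Smad7* was at 86.4 and 41.8 RPM and *Id3* at 950 and 956 RPM. The Lgr5-GFP cells were lower for *Id1* (355 and 594 RPM), *Id2* (816 and 1198 RPM) and *Bmp7* (34 and 48.9 RPM). Over all E10.5 cells of both sorts, *Bmp2* was the member called higher in the Lgr5-GFP sort, at 10.9 against 1.42 RPM (2.67% of all genes tested were higher and 2.25% lower), and its call was lost without pool 2, without pool 4, and without the 1 cell with most reads on each side.

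**Figure D3:**
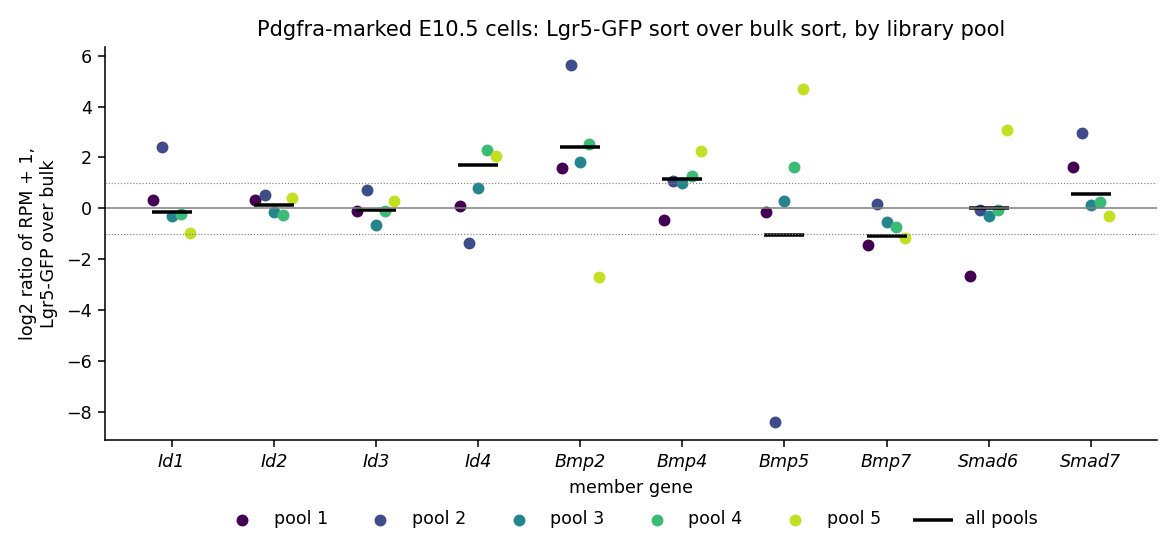
Log2 ratio of RPM + 1 of Lgr5-GFP over bulk cells within the *Pdgfra*-marked E10.5 cells, for each member and each of the 5 library pools (points) and for all pools (bars). Dotted lines mark log2 ratios of 1 and −1. The bars of *Id1*, *Id2*, *Id3* and *Smad6* lie near 0, while the pools of *Id1* and *Smad6* spread to both sides, and *Bmp4* is above 0 in 4 of 5 pools.

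The erythroid class allowed a comparison of stages, with 32 of the 160 *Klf1*-marked cells from E10.5 and the others from E13.5. *Smad7* was at 0.0766 RPM at E10.5, with 0 of 32 cells over 10 reads, and at 39.1 RPM at E13.5, with 27 cells (21.1%, 14.4 to 29.2). *Smad6* was at 9.72 RPM (1 of 32 cells) and 29.3 RPM (20 cells, 15.6%, 9.81 to 23.1). Both were called higher at E13.5 and no member was called lower, where 7.31% of the 8291 genes tested were higher and 5.26% lower, and 5 members were under 10 RPM on both sides. At E13.5 *Smad6* was at 0.262 and 0.226 RPM in pools 1 and 2 and between 14 and 70.1 RPM in pools 3 to 5. *Smad7* was at 0.117 RPM in pool 1 and between 20.8 and 105.3 RPM in the other pools. Of the *Smad6* reads at E10.5, 1 cell held 97.4%, and the log2 ratio was 1.5 with it and 4.19 without the top cell of each side. It was 0.10 without pool 4 and 0.83 without pool 5, both below the limit for a call. Markers of cell types moved between the same sides. Of the 8 erythroid markers, 3 were called higher at E13.5, and their sum went from 1893 to 6980 RPM. Of the 3 mesenchymal markers tested, 2 were called lower, with a sum over the list of 298 RPM at E10.5 and 69.5 RPM at E13.5, and none of the 3 leukocyte markers tested was called. Their part in the *Smad6* and *Smad7* values was not tested. Both calls were lost when cells with several markers were put into the class of their highest marker, with log2 ratios of 0.04 for *Smad6* and 1.41 for *Smad7*.

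The *Id* genes stayed low in this class. *Id1* passed 10 reads in 11 of 32 cells (34.4%, 18.6 to 53.2) at E10.5 and in 22 cells (17.2%, 11.1 to 24.9) at E13.5, at 36.3 and 26.9 RPM. *Id3* passed it in 2 (6.25%) and 10 (7.81%) cells, and 73.5% of its E13.5 reads came from 1 cell. *Id2* was at 1.99 and 45.6 RPM, but 97.1% of the later reads came from 1 cell of the Lgr5-GFP sort with 4943 RPM, and the bulk cells had 1.31 RPM. *Bmp4*, *Bmp5* and *Bmp7* passed 10 reads in 0 of these cells at E13.5, which allows shares of up to 2.34% by the limit of 3 cells (2.84% by the exact interval).

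**Figure D4:**
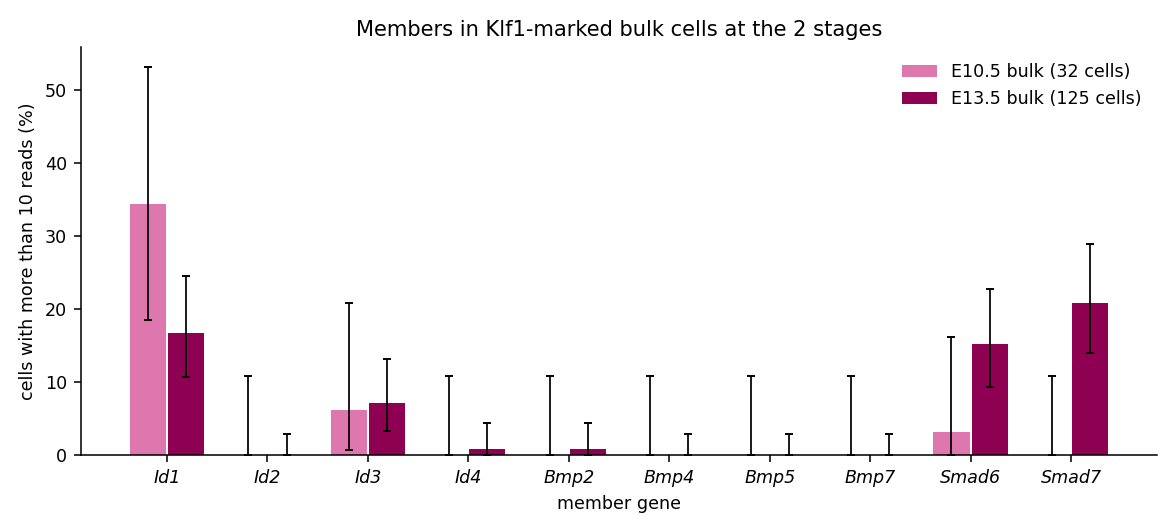
Share of *Klf1*-marked bulk cells with more than 10 reads of each member at E10.5 and E13.5, with exact 95% binomial intervals for counting error only. *Smad7* was at 0% (0 to 10.9) at E10.5 and 20.8% (14.1 to 29) at E13.5, while the intervals of *Smad6* at the 2 stages overlap.

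In the bulk sort *Id1* went from 450 RPM at E10.5 to 57 RPM at E13.5, *Id2* from 842 to 29.5 RPM, *Id3* from 1866 to 118.3 RPM, *Bmp4* from 152.8 to 0.316 RPM, *Bmp5* from 33.2 to 0.0451 RPM and *Bmp7* from 22.9 to 0.0282 RPM. These 6 were called lower and none higher (18.1% of all genes tested were lower and 7.32% higher). *Smad6* at 50.7 and 39.4 RPM and *Smad7* at 52.6 and 49.8 RPM were not called. In these groups the share of *Klf1*-marked cells went from 15.8% to 78.6%, and its part in the 6 values cannot be told apart from a change within cells, since the bulk held 1 *Pdgfra*-marked cell at E13.5. More cells of a type and more RNA per cell give the same group level.

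At E13.5 the Lgr5-GFP sort was above the bulk for *Id2* (754 and 29.5 RPM), *Id3* (2332 and 118.3 RPM) and *Bmp4* (90.8 and 0.316 RPM), which were called (9.65% of all genes tested were higher and 11.1% lower). *Bmp4* passed 10 reads in 7 of 80 Lgr5-GFP cells and in 0 bulk cells. Of its Lgr5-GFP reads, 41.2% came from 1 of the 2 *Afp*-marked cells that go against their class, with 3640 RPM. The ratio of *Bmp4* was close to 0 in the lowest pool (log2 0.01). *Id1* (434 and 57 RPM) was not called since 1 pool had the opposite sign. *Klf1*-marked cells made up 3.75% of the Lgr5-GFP sort and 78.6% of the bulk, and their part in these values was not tested. The share of genes higher among all those called was 46.6%, and it was 35.3% with TMM and 34.5% with DESeq2 factors, under which the call of *Bmp4* was lost.

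Between the stages of the Lgr5-GFP sort, *Bmp7* alone was called, at 29 RPM (38 cells, 18%) at E10.5 and 0.629 RPM (1 of 80 cells) at E13.5, lower in all 5 pools (10.6% of all genes tested were lower and 3.42% higher). The pools of this sort had 18.9 to 45.3 RPM at E10.5 and 0 to 2.03 RPM at E13.5. *Id1* at 526 and 434 RPM, *Id2* at 1171 and 754 RPM and *Id3* at 2082 and 2332 RPM kept high levels at both stages. Between the stages *Afp*-marked cells went from 53 (25.1%) to 2 (2.5%) and *Pdgfra*-marked cells from 66 (31.3%) to 7 (8.75%). The part of this shift in the *Bmp7* and *Id* values was not tested.

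Of the 80 E13.5 Lgr5-GFP cells, 67 had none of the 3 markers, and these held the high *Bmp2* level of the group. *Bmp2* was at 93.3 RPM in them (91.2 to 95.5), with more than 10 reads in 15 of 67 cells (22.4%, 13.1 to 34.2). The 89 unmarked Lgr5-GFP cells of E10.5 had 13.4 RPM, with 73.1% of the reads in 1 cell. Over both sorts, unmarked E10.5 cells had 6.8 RPM, and 4 of them (2.31%, 0.633 to 5.81) passed 10 reads. In the 67 cells *Bmp2* was between 176.1 and 193.3 RPM in pools 3, 4 and 5 and at 0 and 0.0377 RPM in pools 1 and 2. Of these 15 cells, 14 also had more than 10 reads of *Cdh5*, the gene of VE-cadherin, which 22 of the 67 cells held. *Kdr*, *Pecam1* and *Stab2*, the first 2 general and the last a sinusoidal endothelial marker, were over the limit in 13 of the 15 each, and *Col1a1* and *Ptprc* in 1 each. *Pecam1* encodes CD31, by which the sort was to leave out endothelium, yet 22 of these 67 cells had more than 10 reads of it. All 8 endothelial markers of the list reached 10 RPM over the 67 cells, and their sum was 1599 RPM, with a median of 2.64 RPM and a maximum of 10976 RPM per cell. Markers of other cell types were present in the 67 cells as well. All 6 leukocyte markers reached 10 RPM, with a sum of 648 RPM (median 0.72 and maximum 8074 RPM per cell), and *Ptprc*, which encodes the CD45 the sort was to leave out, passed 10 reads in 6 cells. All 8 mesenchymal markers did so, with a sum of 4475 RPM, and 5 of 6 muscle progenitor, 5 of 8 erythroid, 3 of 6 mesothelial and 1 of 8 hepatoblast markers. The markers named with *Bmp2* were chosen after its values were seen, and the part of these cell types in its level was not tested. *Bmp4* passed 10 reads in 4 of the 67 cells, too few to describe by cell type. *Col1a1*, *Col3a1* and *Lum*, 3 of the 8 mesenchymal markers, were each over the limit in 3 of those 4 and *Cdh5* in 1. The shares of these mesenchymal markers over the 67 cells are not given here. *Smad6* passed it in 12 cells, 8 of them with *Cdh5*, and *Id3* in 52 cells, 19 of them with *Cdh5*. *Id3* was at 2579 RPM, *Id2* at 767 RPM and *Id1* at 494 RPM in these unmarked cells.

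**Figure D5:**
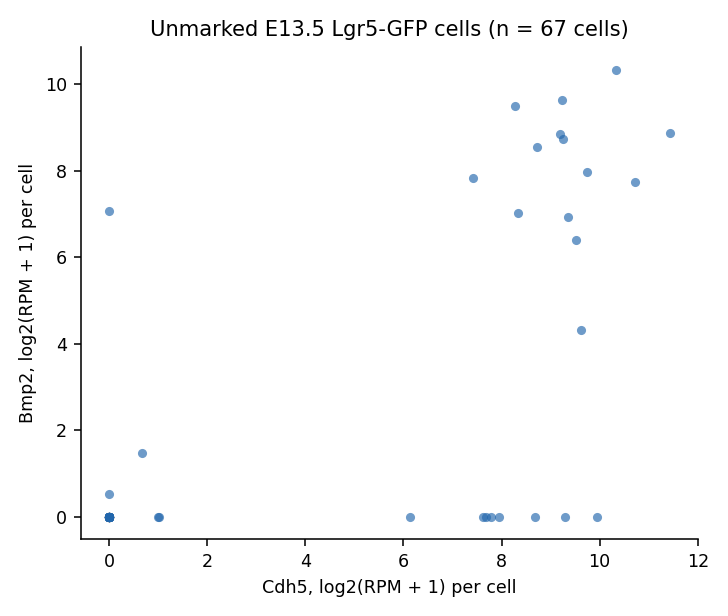
*Bmp2* against *Cdh5* in the 67 unmarked Lgr5-GFP cells of E13.5, as log2(RPM + 1), 1 point per cell. All cells with more than 10 reads of *Bmp2* but 1 lie at high *Cdh5*, and 8 of the 22 cells with *Cdh5* have no *Bmp2* over the limit.

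In the unmarked E10.5 cells, 89 Lgr5-GFP and 84 bulk, *Id3* was at 2489 RPM, *Id2* at 1002 RPM, *Id1* at 535 RPM, *Bmp4* at 173.9 RPM (45 cells, 26%), *Smad6* at 81.5 RPM, *Smad7* at 73.8 RPM, *Bmp5* at 21.3 RPM, *Id4* at 18.7 RPM, *Bmp7* at 17.4 RPM and *Bmp2* at 6.8 RPM. All 8 mesenchymal markers reached 10 RPM in them, and 24 of the 45 cells with *Bmp4* also had more than 10 reads of *Col1a1*. The erythroid factor gene *Tal1* was at 20.2 RPM in the unmarked E10.5 cells as well. The mesenchymal list alone does not tell which cell types they are. The part of each cell type in these levels was not tested. The 8 *Pdgfra*-marked cells of E13.5 are too few for a comparison. They had 895 RPM of *Id3*, 417 RPM of *Id2*, 54.7 RPM of *Id1*, 41.9 RPM of *Bmp4* and 56.8 RPM of *Bmp5*, and no read of *Bmp7*.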

How the data were processed

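Single cells were sequenced with Smart-seq2. Per the labels and the study's methods, the authors aligned the reads to GRCm38 with spike-ins by STAR 2.6.0c, counted them per gene with Subread 1.6.2 and removed cells of low quality, and they deposited raw counts of 653 cells. A deposited table of normalised, batch-corrected values of variable genes was not used. Counts of a group were summed over its cells and divided by all reads on genes (RPM). Intervals are exact Poisson for levels and Clopper-Pearson for shares (95%), and a share of 0 allows 3 cells of the total. They cover counting error only, since reads without molecular identifiers are not independent molecules. Ratios are log2 of RPM + 1. Correlations are of log2(RPM + 1) over cells.

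Each of the 653 columns held distinct values. The labels name no animal, so each group is 1 sample and no test was run. Library pools served as technical batches. Levels per kilobase used the exons of GENCODE vM21. Scripts ran in Python 3.11.15 with numpy 2.4.6, pandas 2.3.3, scipy 1.17.1 and matplotlib 3.10.9, and in R 4.3.3, where edgeR 4.0.16 and DESeq2 1.42.0 gave scaling factors as alternatives only. Named were all 10 members, up to 4 called genes of each pathway list with the largest log2 ratio, and the 5 genes most like each member, of which some are given by the nearest alone and 1 is not reported here. Members and lists were chosen with earlier results of these data known.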

Additional observations from a re-analysis of the deposited data

How the results depend on the processing

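Counts of members called stayed within 1.5 times under most alternatives, and no called log2 ratio changed sign. Over 556 values of called members under the alternatives, 491 moved by less than the spread between pools and 65 by more. Between *Pdgfra*-marked and *Afp*-marked cells, 4 calls became 2 with DESeq2 factors. Between the sorts in *Pdgfra*-marked cells, 0 calls became 4 without pools 3, 4 and 5, 5 with no condition on pools and 1 without the top cell of each side, an alternative chosen after seeing the data. In *Klf1*-marked cells, the 2 calls between stages became 4 at a marker limit of 50 reads, 1 at a limit of 5 reads, 0 with multi-marker cells placed by their top marker and 1 at a log2 limit of 2. Between the sorts over all E10.5 cells, 1 call became 0 with the mean of single cells, 0 after thinning to 400000 reads, 2 without pools 3, 4 and 5, 3 with no condition on pools and 0 without the top cell of each side. At E13.5, 3 calls became 7 with no condition on pools, and between the stages of the Lgr5-GFP sort 1 call became 4 without pools 3, 4 and 5 and 3 with no condition on pools. The cause was not tested.

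With 1 pool left out at a time, the calls ranged from 3 to 5 (*Pdgfra* over *Afp*), 8 to 10 (*Pdgfra* over *Klf1*), 6 to 6 (*Afp* over *Klf1*), 0 to 2 (sorts in *Pdgfra*-marked cells), 1 to 3 (stages in *Klf1*-marked cells), 0 to 2 (sorts at E10.5), 3 to 5 (sorts at E13.5), 6 to 6 (stages in bulk) and 1 to 1 (stages in Lgr5-GFP cells). In the first of these, *Id4* was lost without pool 3 or 4 and *Bmp2* was gained without pool 1 or 3. Between the sorts at E10.5, *Bmp2* was lost without pool 2 or 4. At E13.5, *Id4* and *Bmp2* were gained without pool 1.

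Over all 653 cells, the share with more than 10 reads against that with any read was 53% and 83.9% for *Id1*, 53.4% and 88.5% for *Id2*, 64% and 96.8% for *Id3*, 6.89% and 13% for *Id4*, 5.97% and 9.95% for *Bmp2*, 20.1% and 44.1% for *Bmp4*, 5.97% and 14.1% for *Bmp5*, 9.19% and 16.7% for *Bmp7*, 28.2% and 48.7% for *Smad6* and 35.2% and 50.8% for *Smad7*. After thinning, *Smad6* was at 24.7%. Without pools 3, 4 and 5, the comparisons of classes and of *Klf1* stages had too few pools for a value. No paired analysis was possible because the replicate numbers only name cells and no test was run, beyond the ratios within pools on which the calls rest. Depth limits shares of 0 as given beside them.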
